A study of Mus musculus with 21 samples.

Results

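Knockdown of Hsp90aa1, the gene of the stress-inducible cytosolic HSP90 chaperone (HSP90 alpha), was followed by RNA sequencing in CAF1, a line of fibroblasts from the mammary carcinoma of MMTV-PyMT mice, in which a mammary tumour virus promoter drives a viral oncogene in the mammary epithelium. The comparison holds 6 of the series' 21 libraries: 3 of CAF1 with a pool of siRNAs against Hsp90aa1 (siHsp90aa1) and 3 of CAF1 with a control siRNA (siCtr), both with vehicle. These 2 groups and their 6 libraries were chosen by their titles, and all 15230 genes that passed a filter on low counts were tested. Both groups received 100 nM siRNA in medium with 10% serum, and RNA was extracted 48 h after the transfection. The other 5 groups, each also of 3 libraries, were CAF1 with siRNA against Hsp90ab1 (siHsp90ab1) and vehicle, and NF1, a line of fibroblasts from normal FVB/n mammary glands, with siCtr and vehicle, siCtr and TGFb1 at 5 ng/mL, siHsp90aa1 and TGFb1, or siHsp90ab1 and TGFb1. Each line is a single numbered line, and the sources used here do not say whether the 3 replicates of a group were separate cultures, so p-values measure only the spread between these libraries. No source used here gives the age of the animals.

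HSP90 is an ATP-driven chaperone that folds and stabilises kinases, steroid receptors and other client proteins, with co-chaperones that load clients or set the pace of its ATP cycle. Mammalian cells have an inducible form, encoded by Hsp90aa1, and a constitutive form, encoded by Hsp90ab1, and the inducible form is also found outside cells. Carcinoma-associated fibroblasts are known for collagen-rich matrix, contractile actin bundles and secreted cytokines, and TGFb1 is a main signal that drives fibroblasts to this state.

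Library totals ran from 35087162 to 70421549 counts in the controls and from 42401702 to 68737738 counts with siHsp90aa1, and replicates of a group differed by 23.8 to 155 times the counting noise (chi-square per degree of freedom). In both groups replicate 3 lay furthest along the first principal component of the 9 CAF1 libraries, which held 41.2% of their variance, and replicate 3 of the siHsp90ab1 group lay there too. The 10 most abundant genes took 8.18% to 9.17% of counts in the controls and 10.2% to 11.1% with siHsp90aa1. Of 12 fibroblast markers all 12 were detected, and their summed level was 41222 to 49674 CPM (counts scaled to library size, TMM-normalised, the unit of all levels here) in the controls and 56745 to 62784 CPM with siHsp90aa1, most of it collagen I. Of these markers Lum (0.202 to 0.707 and 0.228 to 0.703 CPM) and Fap (0.490 to 1.24 and 0.738 to 3.11 CPM) were low. Markers of other cells were low: the 12 epithelial and carcinoma markers summed to 5.58 to 22.2 CPM in the controls and 10.1 to 15.5 CPM with siHsp90aa1, nearly all Krt19, with Cldn3, Cldn4 and Elf5 at 0. The 10 endothelial markers summed to 16.3 to 21.6 and 20.9 to 26.1 CPM with Tie1 and Cldn5 at 0. Most of this was Flt1 (8.81 to 17.3 and 10.8 to 17.6 CPM) and Kdr (2.94 to 6.02 and 6.62 to 9.03 CPM). The 10 immune markers summed to 13.2 to 17.4 and 10.2 to 13.3 CPM with Adgre1 and Cd3e at 0. Most of this was Cd14 (9.03 to 11.4 and 6.80 to 8.36 CPM), followed by Cd68 and Csf1r. The 8 pericyte markers summed to 312 to 408 and 391 to 444 CPM, almost all Pdgfrb, which fibroblasts express, with Kcnj8 and Abcc9 at 0. The 8 glial markers summed to 9.69 to 15.6 and 14.99 to 19.5 CPM with Sox10 at 0. Most of this was Mbp (7.50 to 8.80 and 7.65 to 11.3 CPM) and Ngfr (0.749 to 5.52 and 2.43 to 9.74 CPM). The 8 adipocyte markers summed to 0.231 to 0.287 and 0.276 to 0.431 CPM with Cfd and Pck1 at 0. In these bulk libraries a change in the share of cells of one kind or phase and a change in RNA per cell cannot be told apart.

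Hsp90aa1 (ENSMUSG00000021270, GRCm38 chr12:110690605-110702728, minus strand) was at 995, 926 and 726 CPM in control replicates 1 to 3 and at 122, 85.9 and 58.1 CPM with its siRNA. Every library labelled siHsp90aa1 lay far under every control, at 10.0% of the control mean, a log2 fold change of -3.31 ± 0.33 (SE, adjusted p = 4.20e-06). All adjusted p-values here are from edgeR's quasi-likelihood test with Benjamini-Hochberg adjustment over all genes tested, the threshold for a call is 0.05, and n is 3 libraries per group. On the TPM scale, which is corrected for transcript length and so allows levels of different genes to be compared, Hsp90aa1 went from 841, 819 and 618 to 86.4, 80.7 and 47.5. The constitutive gene Hsp90ab1 was the more abundant of the pair, at 2118, 2052 and 1980.4 TPM in the controls and 1670.3, 1652 and 1629.5 TPM with siHsp90aa1. The sum of both was 2809 ± 188 TPM in the controls and 1722 ± 40.9 TPM after knockdown (SD, n = 3), so the cytosolic HSP90 transcript pool was smaller in every siHsp90aa1 library. Hsp90ab1 was lower in all 3 siHsp90aa1 libraries with no overlap but did not pass the test (-0.24 ± 0.20, adjusted p = 0.413). It passed in a fit of only the 2 groups compared (adjusted p = 0.0413). Hsp90b1, the endoplasmic reticulum HSP90 (-0.15 ± 0.14, adjusted p = 0.465), and Trap1, the mitochondrial one (0.10 ± 0.10, adjusted p = 0.508), did not pass either.

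Of 24 HSP90 and co-chaperone genes, 9 were lower and 1 was higher, beside 12.9% lower and 12.5% higher among all genes tested, and the list's median was -0.16 on the log2 scale beside 0.03 over all genes. The 9 include Hsp90aa1, the target of the siRNA, whose fall the design sets. Only Hsp90aa1 and Fkbp4 kept their call in each of the 6 fits that left out 1 library. Fkbp4, an immunophilin that takes part in steroid receptor complexes, fell from 230.3, 221 and 194 CPM to 139, 136 and 129 CPM (-0.67 ± 0.09, adjusted p = 4.47e-05), with no overlap between the groups. Ahsa1, which speeds the ATPase of HSP90, fell from 116, 107 and 102 CPM to 88.9, 85.9 and 84.5 CPM (-0.33 ± 0.09, adjusted p = 0.011). Its call was lost without control replicate 1 (adjusted p = 0.0544). Ptges3, the p23 co-chaperone, overlapped between groups at 209, 203 and 175 CPM and 165, 176 and 144 CPM (-0.28 ± 0.08, adjusted p = 0.0175), and its call was lost without control replicate 1, control replicate 2 or siHsp90aa1 replicate 3 (highest adjusted p = 0.0906) and in a fit of only the 2 groups compared (0.0845). Of 19 targets of heat shock factor, 1 was higher and 2 were lower (3 and 5 with the replicate number as a block), and the median was -0.05. Hsf2, a heat shock factor gene, was the 1 of these that was called in all 6 fits without 1 library, from 19.7, 19.5 and 20.6 CPM to 14.6, 13.5 and 12.4 CPM (-0.56 ± 0.13, adjusted p = 0.00351).

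**Figure D1:**
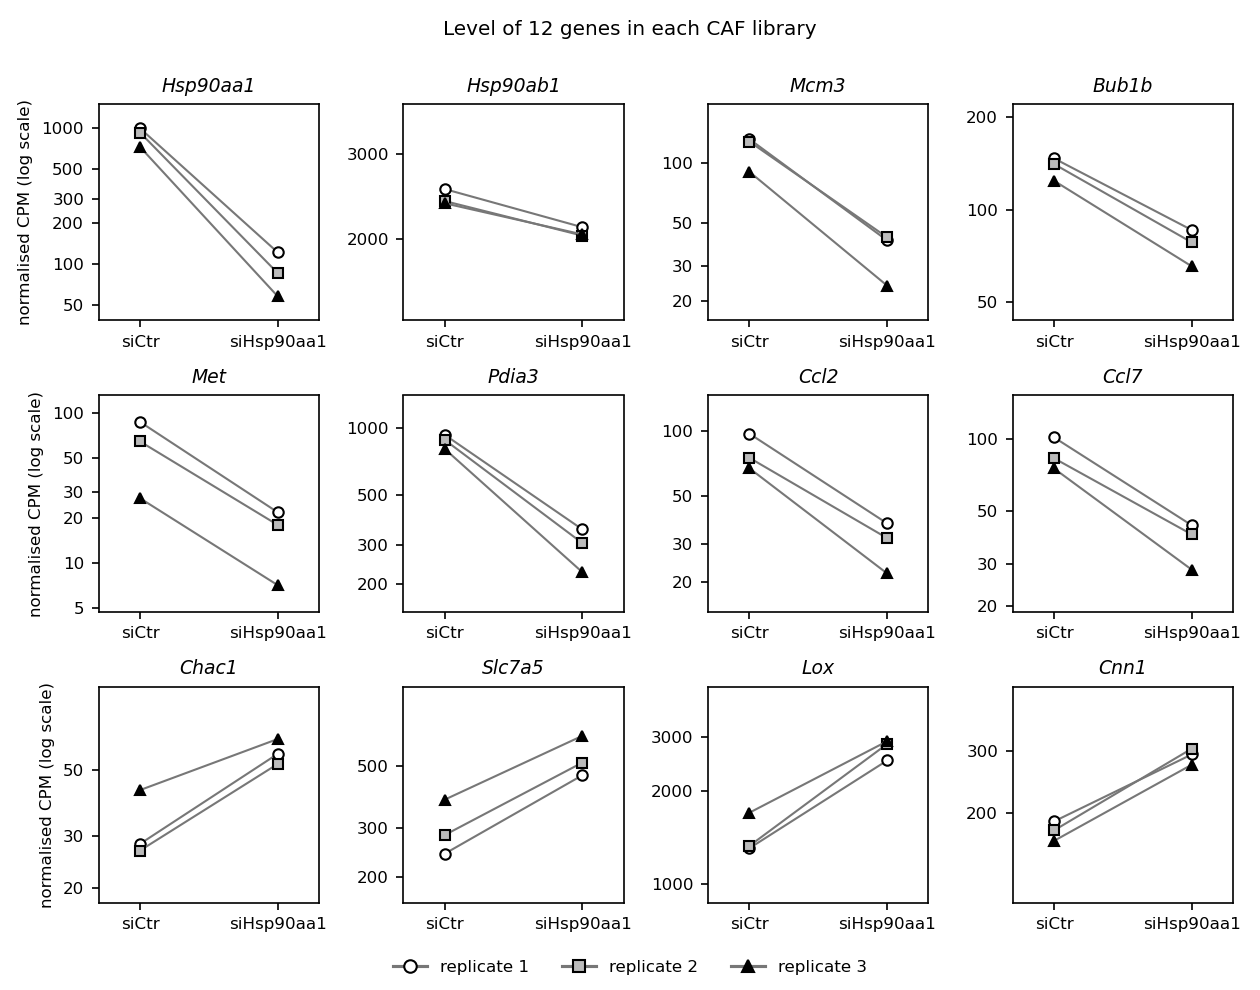
Level of 12 genes in each control (siCtr) and siHsp90aa1 library of CAF1, in CPM on a log axis, with a line joining libraries of the same replicate number. Hsp90aa1 falls in all 3 pairs, Mcm3, Bub1b, Met, Pdia3, Ccl2 and Ccl7 fall in all 3 pairs, and Chac1, Slc7a5, Lox and Cnn1 rise in all 3 pairs, while Hsp90ab1 moves little.

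Over the transcriptome, 3867 of 15230 genes passed the test (25.4%), 1898 higher (12.5%) and 1969 lower (12.9%). Most of these changes were small: 180 genes (1.18%) were more than 2-fold higher and 305 (2%) more than 2-fold lower. The count was 2605, 2460 and 2524 without control replicate 1, control replicate 2 and siHsp90aa1 replicate 3, of which 1173, 979 and 1142 were higher. In all, 847 of the higher genes (5.56% of all tested) and 1210 of the lower genes (7.94%) were called in each of the 6 fits without 1 library. Without replicate 3 of every CAF1 group, which stood apart, 3342 genes passed.

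**Figure D2:**
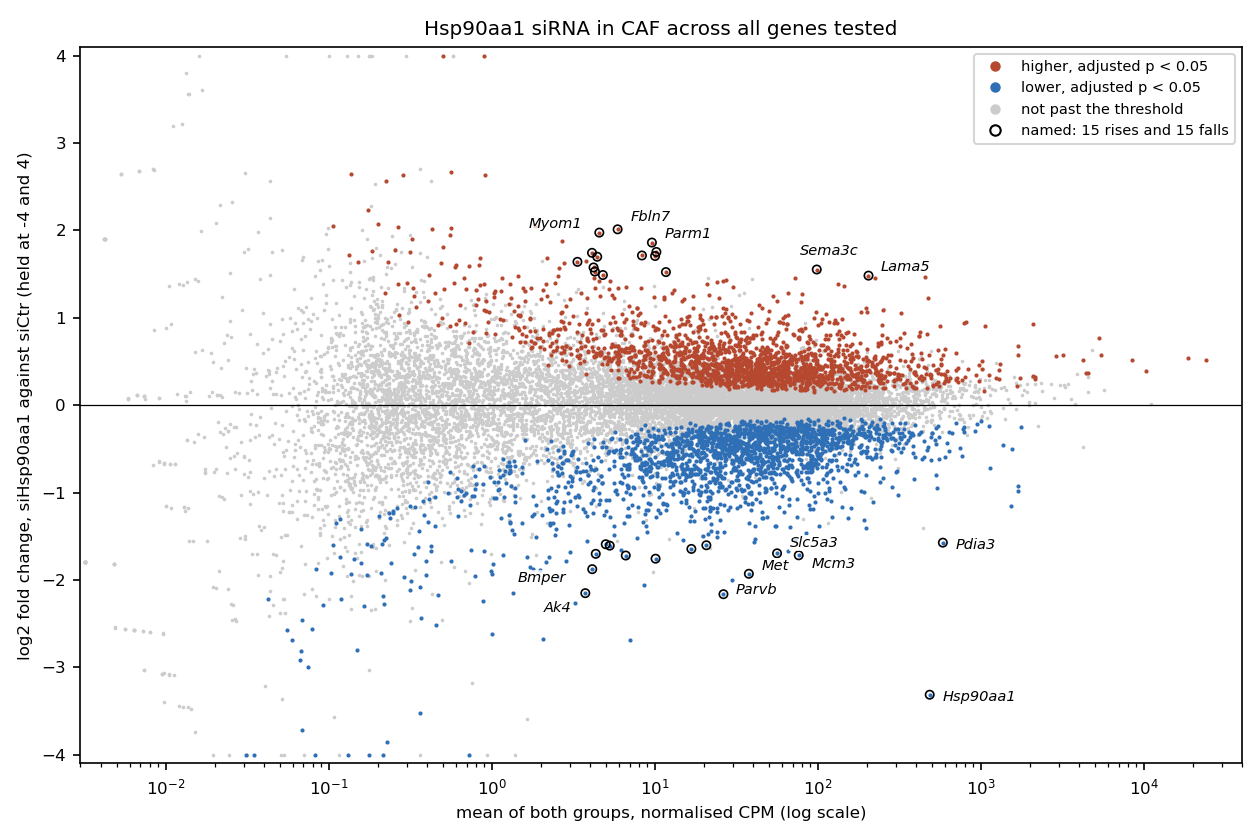
Log2 fold change of each tested gene (siHsp90aa1 against siCtr in CAF1, vertical axis, values beyond 4 drawn at 4 or -4) against its mean level in CPM (log axis), with genes past the test coloured and the 15 largest named rises and falls circled. The calls are spread over the whole range of levels, 1898 above 0 and 1969 below, and Hsp90aa1 lies lowest among the genes circled.

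Among 1590 falls with a mean of 5 CPM or more in the higher group, groups that did not overlap and the same sign in the 3 replicate pairs, the 15 largest began with Hsp90aa1. The next was Parvb, beta-parvin, which links integrin-linked kinase to actin: 54.2, 49.4 and 25.8 CPM in the controls and 11.9, 11.3 and 5.55 CPM after knockdown (-2.16 ± 0.41, adjusted p = 8.72e-04). In both groups replicate 3 was the lowest. Ak4, a mitochondrial adenylate kinase, was at 5.54, 6.28 and 6.51 CPM and then at 1.17, 1.70 and 1.28 CPM (-2.15 ± 0.24, adjusted p = 1.46e-05). Met, the receptor for hepatocyte growth factor and an HSP90 client as a protein, was at 87.6, 64.9 and 27.1 CPM and then at 21.8, 18.0 and 7.13 CPM (-1.93 ± 0.39, adjusted p = 0.00159). Met was lowest in replicate 3 of each group, and the pairs of replicates fell alike. Bmper, a secreted regulator of BMP signalling, went from 7.60, 6.28 and 5.63 to 2.05, 1.72 and 1.51 CPM (-1.88 ± 0.17, adjusted p = 2.13e-06). Etv1, an ETS transcription factor, went from 13.0, 11.3 and 6.28 to 3.59, 3.83 and 1.81 CPM (-1.72 ± 0.32, adjusted p = 8.72e-04). Slc5a3, the sodium-coupled inositol transporter, was even across libraries, at 85.3, 81.3 and 91.3 CPM in the controls and 29.0, 25.3 and 25.3 CPM with siHsp90aa1 (-1.70 ± 0.14, adjusted p = 1.12e-06). Pdia3, a disulphide isomerase of the endoplasmic reticulum that works with calnexin and calreticulin, was abundant and fell from 934, 886 and 807 CPM to 351, 305 and 226 CPM (-1.57 ± 0.19, adjusted p = 2.09e-05). The helicase-nuclease gene Dna2, Mcm3 and Cdc6 belong to DNA replication and are described with that group. Bcl6b, Arhgap19 and Nanos1 fell by 1.70, 1.60 and 1.59 on the log2 scale (adjusted p = 0.00127, 3.00e-05 and 1.27e-04). Add2, beta-adducin of the membrane skeleton, fell by 1.61, but its call was lost without control replicate 1 or siHsp90aa1 replicate 3 (highest adjusted p = 0.0669). Each of the other 14 was called in all 6 fits without 1 library.

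The 15 largest of 1574 rises by the same rule were mostly of low level. Myom1, the sarcomere protein myomesin, went from 2.17, 1.56 and 1.795 CPM to 6.50, 7.58 and 7.80 CPM (1.98 ± 0.24, adjusted p = 2.81e-05). Lims2, the PINCH2 partner of integrin-linked kinase, went from 2.25, 1.56 and 1.85 to 6.48, 5.65 and 6.93 CPM (1.74 ± 0.33, adjusted p = 9.33e-04). Hspb7, a small heat shock protein of muscle, went from 2.23, 1.61 and 2.75 to 6.34, 6.75 and 6.07 CPM (1.53 ± 0.20, adjusted p = 3.98e-05). Mir143hg, the host transcript of the smooth muscle microRNAs miR-143 and miR-145, went from 3.03, 1.90 and 2.62 to 10.2, 4.62 and 6.50 CPM (1.49 ± 0.29, adjusted p = 0.00122). These 4 rose from a few CPM. Pappa, the protease that cleaves IGF-binding proteins, was at 3.67, 3.23 and 4.76 CPM and then at 10.9, 12.7 and 14.8 CPM (1.71 ± 0.20, adjusted p = 1.99e-05). Parm1, a mucin-like membrane protein, was at 3.28, 3.92 and 5.23 CPM and then at 13.6, 16.3 and 15.4 CPM (1.86 ± 0.24, adjusted p = 3.46e-05). The highest in level were Lama5, the laminin alpha 5 chain of basement membranes, at 116, 112 and 95.9 CPM and then 352, 321 and 231 CPM (1.48 ± 0.22, adjusted p = 1.12e-04), and Sema3c, a secreted semaphorin. Sema3c was at 32.9, 43.3 and 74.0 CPM in the controls and 105, 147 and 189 CPM with siHsp90aa1 (1.55 ± 0.35, adjusted p = 0.00318), with replicate 3 highest in each group. Tcp11l2, Slc24a3, a sodium-calcium exchanger, and C1qtnf3, a secreted C1q-like protein, rose by 1.75, 1.71 and 1.70 on the log2 scale (adjusted p = 0.00392, 9.05e-05 and 0.00378). Fbln7, a fibulin, had the largest fitted rise, from 1.75, 1.24 and 4.01 CPM to 5.76, 5.22 and 17.5 CPM (2.01 ± 0.58, adjusted p = 0.0157). Its call, and those of Zfr2 (1.64) and Plin4 (1.58), were lost without control replicate 1, control replicate 2 or siHsp90aa1 replicate 3 (highest adjusted p = 0.163, 0.0991 and 0.0841), and that of Arhgap20 (1.52) without these 3 (highest adjusted p = 0.18) and without siHsp90aa1 replicate 2 (adjusted p = 0.0507). In a fit of only the 2 groups compared Fbln7, Zfr2 and Arhgap20 did not pass (adjusted p = 0.0584, 0.0735 and 0.0806), and Arhgap20 did not with DESeq2 (adjusted p = 0.0756).

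The most uniform change was a fall of DNA replication genes. All 26 of the list were tested and all 26 were lower, beside 12.9% of all genes, with log2 fold changes from -1.72 to -0.64 and a median of -1.04. All 26 were lower in each of the 6 fits without 1 library and without replicate 3 of every CAF1 group, and the groups did not overlap for 26 of the 26, beside 40.4% of all genes. The 6 subunits of the MCM helicase, which unwinds DNA at replication forks, fell together. Mcm3 was at 132, 129 and 90.5 CPM in the controls and 40.6, 42.1 and 24.0 CPM with siHsp90aa1 (-1.72 ± 0.18, adjusted p = 6.46e-06), Mcm5 at 144, 144 and 104 and 62.5, 63.5 and 46.1 CPM (-1.19 ± 0.14, adjusted p = 2.20e-05) and Mcm7 at 146, 135 and 109.5 and 73.4, 72.8 and 64.1 CPM (-0.89 ± 0.10, adjusted p = 1.98e-05). Replicate 3 was the lowest library in both groups, yet the highest siHsp90aa1 library stayed under the lowest control for each. Mcm6, Mcm4 and Mcm2 fell by 1.15, 1.00 and 0.83. Pcna, the sliding clamp of DNA polymerases, went from 189, 191 and 140.2 CPM to 76.9, 79.8 and 57.4 CPM (-1.28 ± 0.13, adjusted p = 6.16e-06). The loading factors fell as well, Cdc6 from 29.4, 30.1 and 16.8 CPM to 9.38, 10.6 and 4.32 CPM (-1.65 ± 0.27, adjusted p = 2.73e-04) and Cdt1 by 1.20. Ccne1 and Ccne2, the E cyclins of the G1 to S step, fell by 1.18 and 1.13, and the nucleotide enzymes Tk1, Tyms, Rrm2 and Rrm1 by 1.12, 0.91, 1.07 and 0.65. Dna2, outside the list and named among the largest falls, was at 17.1, 18.0 and 11.7 CPM in the controls and 4.52, 5.71 and 3.61 CPM with siHsp90aa1 (-1.76 ± 0.22, adjusted p = 2.84e-05).

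Mitosis genes fell less and almost as widely: 23 of 26 were lower and 0 higher, beside 12.9% and 12.5% of all genes. The median was -0.75, and 20 were called in each of the 6 fits without 1 library. Ncapg, a condensin subunit, went from 62.4, 61.4 and 51.2 CPM to 32.0, 31.4 and 24.0 CPM (-0.9997 ± 0.11, adjusted p = 1.68e-05). Bub1b, a kinase-like protein of the spindle checkpoint, went from 147, 141 and 124 CPM to 85.8, 78.2 and 65.4 CPM (-0.84 ± 0.10, adjusted p = 2.39e-05). Ccna2, cyclin A, went from 141, 144 and 108 CPM to 69.8, 65.3 and 47.0 CPM (-1.11 ± 0.14, adjusted p = 3.18e-05). Birc5, survivin of the chromosomal passenger complex, had the largest of these 4 falls, from 67.5, 66.0 and 48.8 CPM to 23.0, 23.8 and 14.7 CPM (-1.56 ± 0.19, adjusted p = 2.91e-05). The controls and siHsp90aa1 libraries did not overlap for any of the 4. Other members, given after their values were seen, were Cdc20 (110.1, 105 and 86.9 and then 65.6, 61.3 and 57.1 CPM, -0.71 ± 0.10, adjusted p = 8.33e-05) and the proliferation antigen gene Mki67 (390.1, 409.5 and 337 and then 244, 241 and 184 CPM, -0.76 ± 0.18, adjusted p = 0.00528). Mad2l1, Cenpf and Anln had log2 fold changes of -0.33, -0.51 and -0.44 and did not pass (adjusted p = 0.058, 0.0628 and 0.0636). With the replicate number as a block all 26 passed. Of the cyclin and cyclin-dependent kinase genes that act earlier in the cycle, Ccnd1, cyclin D1, fell from 369.6, 333 and 151 CPM to 125, 125 and 72.4 CPM (-1.40 ± 0.30, adjusted p = 0.00249), Cdk4 from 294, 284 and 267 CPM to 211, 203 and 197 CPM (-0.47 ± 0.07, adjusted p = 1.12e-04) and Cdk6 from 46.9, 52.6 and 42.0 CPM to 25.5, 31.9 and 23.5 CPM (-0.81 ± 0.12, adjusted p = 1.60e-04).

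In a list of 21 genes, mostly p53 targets and inhibitors of cyclin-dependent kinases, 8 were higher and 1 was lower, beside 12.5% and 12.9% of all genes. The 1 lower gene was Ccnd1, the cyclin gene given above, which is no such inhibitor. Cdkn2b, the inhibitor p15 of CDK4 and CDK6, rose from 23.2, 19.4 and 25.1 CPM to 36.8, 33.7 and 37.4 CPM (0.67 ± 0.12, adjusted p = 5.96e-04). Fas, the death receptor, rose from 4.13, 3.75 and 4.47 CPM to 7.38, 6.90 and 8.51 CPM (0.88 ± 0.14, adjusted p = 2.97e-04). Bbc3, the BH3-only protein PUMA, went from 5.598, 6.72 and 9.42 CPM to 12.5, 13.4 and 15.96 CPM (0.95 ± 0.23, adjusted p = 0.00528), each with no overlap and called in all 6 fits without 1 library. Cdkn1a, the inhibitor p21, named after its values were seen, rose from 94.1, 70.9 and 79.8 CPM to 153, 126 and 149 CPM (0.81 ± 0.22, adjusted p = 0.0111), and its call was lost without control replicate 2 (adjusted p = 0.0647).

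Because these genes moved together, their promoters were read from the RefSeq annotation (GRCm38.p6, 250 bases before to 50 after the start, 5' to 3' along the gene), with capitals for the motif. E2F factors, which drive S-phase genes, are known to bind TTTGGCGC, TTTCCCGC, TTTCGCGC or TTTGCCGC, and at least 1 of these runs of letters, on either strand, was in 10 of 22 promoters of 19 matched replication genes (45.5%), beside 2.26% of all 32851 promoters. The mitotic cell-cycle homology region (CHR) TTTGAA was in 17 of 22 promoters of 21 matched mitosis genes (77.3%), beside 17.9% of all. CCAAT, the letters of the NF-Y box, were in 68.2% and 81.8% of the promoters of these lists, beside 37.4% of all. The letters were in 59.1% of those of the integrated stress response list, in which 16 of 22 genes rose. Each of these is a match of letters in these windows, not a measured site. The promoters shown are of Mcm3 (chr1:20820263-20820562 on the minus strand), Mcm5 (chr8:75109259-75109558 on the plus strand), whose E2F matches overlap, and Cdc6 (chr11:98907901-98908200 on the plus strand), 3 of the falling replication genes, and of Bub1b (chr2:118597961-118598260 on the plus strand) and Cdc20 (chr4:118437294-118437593 on the minus strand), with the CHR, so that the letters can be seen beside the falls given.
Mcm3: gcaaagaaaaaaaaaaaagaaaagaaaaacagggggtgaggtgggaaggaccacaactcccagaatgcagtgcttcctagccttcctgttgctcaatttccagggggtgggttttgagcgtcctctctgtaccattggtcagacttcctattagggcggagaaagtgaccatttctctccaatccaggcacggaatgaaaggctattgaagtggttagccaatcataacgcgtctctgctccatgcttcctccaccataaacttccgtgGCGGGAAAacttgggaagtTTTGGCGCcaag
Mcm5: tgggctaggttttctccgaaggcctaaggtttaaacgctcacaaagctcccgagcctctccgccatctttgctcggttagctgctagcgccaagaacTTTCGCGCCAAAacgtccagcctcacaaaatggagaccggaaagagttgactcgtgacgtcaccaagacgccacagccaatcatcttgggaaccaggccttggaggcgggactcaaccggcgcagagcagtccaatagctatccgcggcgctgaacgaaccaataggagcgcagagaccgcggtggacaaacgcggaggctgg
Cdc6: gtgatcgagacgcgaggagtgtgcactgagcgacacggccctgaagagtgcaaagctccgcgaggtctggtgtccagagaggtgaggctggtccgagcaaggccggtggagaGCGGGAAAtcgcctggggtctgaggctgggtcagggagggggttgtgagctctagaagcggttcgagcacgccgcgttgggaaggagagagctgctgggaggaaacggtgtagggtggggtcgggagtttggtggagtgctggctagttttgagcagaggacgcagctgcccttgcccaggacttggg
Bub1b: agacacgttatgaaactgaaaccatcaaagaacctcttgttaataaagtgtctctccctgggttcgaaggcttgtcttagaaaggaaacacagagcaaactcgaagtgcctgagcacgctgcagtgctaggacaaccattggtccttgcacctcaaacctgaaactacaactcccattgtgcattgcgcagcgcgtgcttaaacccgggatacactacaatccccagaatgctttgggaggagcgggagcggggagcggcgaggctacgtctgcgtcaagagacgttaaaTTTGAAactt
Cdc20: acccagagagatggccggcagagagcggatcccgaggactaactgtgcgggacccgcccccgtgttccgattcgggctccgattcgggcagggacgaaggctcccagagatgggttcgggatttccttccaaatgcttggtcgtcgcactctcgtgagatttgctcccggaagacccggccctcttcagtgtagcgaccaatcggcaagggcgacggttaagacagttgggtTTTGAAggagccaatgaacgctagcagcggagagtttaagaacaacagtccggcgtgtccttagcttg

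Of 22 inflammatory cytokines and chemokines tested, 7 were lower and 0 higher, beside 12.9% lower over all genes, and the median was -0.53. The chemokines Ccl2 and Ccl7, which draw monocytes through the receptor CCR2, fell most clearly. Ccl2 was at 96.8, 74.9 and 67.0 CPM in the controls and 37.3, 31.9 and 21.9 CPM with siHsp90aa1 (-1.39 ± 0.25, adjusted p = 7.31e-04). Ccl7 was at 102, 83.3 and 75.5 CPM and 43.5, 39.8 and 28.3 CPM (-1.22 ± 0.25, adjusted p = 0.00153). Every siHsp90aa1 library lay under every control for both. Ccl11, eotaxin, was near the lower end of the measured range at 3.25, 2.05 and 1.32 CPM and 0.802, 0.279 and 0.351 CPM (-2.15 ± 0.48, adjusted p = 0.00304), and the alarmin gene Il33 was at 17.1, 11.9 and 7.28 CPM and 5.81, 4.46 and 4.09 CPM (-1.34 ± 0.30, adjusted p = 0.00334). These 4 were called in all 6 fits without 1 library. The other 3 that passed, named after their values were seen, were Cxcl1 (-0.75), Il6 (-1.79) and Cx3cl1 (-0.50), with adjusted p = 0.023, 0.0252 and 0.0345. The call of Cxcl1 was lost without control replicate 2, control replicate 3 or siHsp90aa1 replicate 3 (highest adjusted p = 0.107), that of Il6 without control replicate 1, siHsp90aa1 replicate 2 or siHsp90aa1 replicate 3 (highest adjusted p = 0.317) and that of Cx3cl1 without control replicate 1, control replicate 2, siHsp90aa1 replicate 2 or siHsp90aa1 replicate 3 (highest adjusted p = 0.177). In a fit of only the 2 groups compared Il6 and Cx3cl1 did not pass (adjusted p = 0.158 and 0.112). The list's count was 4 without siHsp90aa1 replicate 3. Cxcl2, Ccl20 and Csf2 were under the filter and not tested.

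Of 26 interferon-stimulated genes 1 was higher and 1 lower (2 and 1 with the replicate number as a block), beside 12.5% and 12.9% of all genes. Log2 fold changes were above 0 for 23 of the 26, with a median of 0.38, and most did not pass. The 2 that passed were Ifi35 (13.7, 11.6 and 18.7 CPM in the controls, 22.2, 18.7 and 19.0 CPM with siHsp90aa1, 0.44 ± 0.15, adjusted p = 0.0375) and Irf1 (55.3, 60.2 and 58.9 and 46.4, 47.4 and 43.0 CPM, -0.35 ± 0.11, adjusted p = 0.0316). The call of Ifi35 was lost in every fit without 1 library but that without control replicate 3, with adjusted p up to 0.209, in a fit of only the 2 groups compared (0.13) and with no filter (0.0527), and that of Irf1 without control replicate 2, siHsp90aa1 replicate 1 or siHsp90aa1 replicate 3 (highest adjusted p = 0.101). One library stood out: Ifit3, an antiviral protein, was at 2.40, 1.53 and 1.93 CPM in the controls and at 9.70, 2.23 and 2.56 CPM with siHsp90aa1, high only in replicate 1 (1.33 ± 0.49, adjusted p = 0.0569, and 0.0179 with the block). Without replicate 3 of every CAF1 group, 5 of the 26 were higher and 0 lower, and Irf1 lost its call (adjusted p = 0.148). Of 12 antigen presentation genes, 1 was higher and 1 lower (3 and 1 with the block). Erap1, the peptide trimming protease, fell from 19.7, 20.7 and 20.7 CPM to 15.2, 13.3 and 12.2 CPM (-0.58 ± 0.08, adjusted p = 1.03e-04).

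Genes of the integrated stress response, in which ATF4 raises amino acid transport and synthesis when translation initiation is slowed, were higher: 16 of 22 rose and 0 fell, beside 12.5% and 12.9% of all genes, with a median of 0.53. The count of 16 was the same without replicate 3 of every CAF1 group, but was 6, 8 and 8 without control replicate 1, control replicate 2 and siHsp90aa1 replicate 3. Slc3a2 and Slc7a5 encode the heavy and light chain of a transporter of large neutral amino acids. Slc3a2 was at 207, 194 and 231 CPM in the controls and 341, 326 and 372 CPM with siHsp90aa1 (0.72 ± 0.09, adjusted p = 3.29e-05). Slc7a5 was at 243, 283 and 379.6 CPM and 465, 516 and 643 CPM (0.84 ± 0.17, adjusted p = 0.00152). The groups did not overlap for either, and replicate 3 was the highest in each group. Mthfd2, a mitochondrial folate enzyme, rose from 149, 155 and 187 CPM to 212, 228 and 264 CPM (0.52 ± 0.11, adjusted p = 0.00195). Atf4 itself went from 344, 316 and 369.9 CPM to 456, 428 and 458 CPM (0.38 ± 0.08, adjusted p = 0.00283). Chac1, which degrades glutathione, rose from 28.1, 26.7 and 42.7 CPM to 56.6, 52.3 and 63.5 CPM (0.82 ± 0.18, adjusted p = 0.00296). Asns, asparagine synthetase, went from 158, 181 and 211 CPM to 243, 264 and 289.7 CPM (0.53 ± 0.12, adjusted p = 0.00348), both named after their values were seen. These 6 genes were called in all 6 fits without 1 library. Trib3, Vldlr, Atf3 and Ddit3 had larger fold changes of 1.18, 1.07, 1.34 and 0.90 on the log2 scale (adjusted p = 0.00887, 0.00973, 0.0128 and 0.00809), but the first 3 lost the call without control replicate 1, control replicate 2 or siHsp90aa1 replicate 3 (highest adjusted p = 0.0563, 0.0607 and 0.061), and Ddit3 without control replicate 1 (adjusted p = 0.0507). Vldlr did not pass in a fit of only the 2 groups compared either (adjusted p = 0.0632). These 4 were also named after their values were seen.

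The amino acid response letters TGATGNAAN (the C/EBP-ATF response element, CARE), on either strand, were in 8 of 22 promoters of 19 matched genes of this list (36.4%), beside 3.95% of all promoters, and in 0 of 22 replication and 0 of 22 mitosis promoters. The promoters of Chac1 (chr2:119350992-119351291 on the plus strand), which holds the letters on the other strand, and Asns (chr6:7693160-7693459 on the minus strand) are shown, since both genes rose and both windows hold a match, in capitals.
Chac1: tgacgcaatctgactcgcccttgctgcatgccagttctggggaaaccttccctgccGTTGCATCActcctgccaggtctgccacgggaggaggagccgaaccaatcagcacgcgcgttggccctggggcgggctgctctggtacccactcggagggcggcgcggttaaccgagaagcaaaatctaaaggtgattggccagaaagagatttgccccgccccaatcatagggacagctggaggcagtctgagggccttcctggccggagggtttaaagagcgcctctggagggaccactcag
Asns: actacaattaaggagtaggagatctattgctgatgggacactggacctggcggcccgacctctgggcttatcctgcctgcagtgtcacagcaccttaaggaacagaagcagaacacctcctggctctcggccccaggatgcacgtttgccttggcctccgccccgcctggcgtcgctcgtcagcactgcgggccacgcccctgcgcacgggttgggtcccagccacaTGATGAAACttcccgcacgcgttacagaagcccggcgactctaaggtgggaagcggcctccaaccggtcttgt

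Of 19 endoplasmic reticulum chaperones and partners 2 were higher (10.5%) and 1, Pdia3, was lower (5.26%), beside 12.5% and 12.9% of all genes. The median was 0.01, and with the replicate number as a block 4 were higher and 1 lower. Sel1l, the adaptor of the HRD1 ubiquitin ligase in protein degradation from that compartment, rose from 135, 139 and 155 CPM to 208, 212 and 214 CPM (0.56 ± 0.09, adjusted p = 3.22e-04). Herpud1 rose from 55.5, 63.9 and 101 CPM to 109.7, 112 and 137 CPM (0.70 ± 0.19, adjusted p = 0.0123), and its call was lost without control replicate 1, control replicate 2 or siHsp90aa1 replicate 3 (highest adjusted p = 0.079) and in a fit of only the 2 groups compared (0.0686). Hspa5, the chaperone BiP and usual marker of stress in that compartment, had a log2 fold change of 0.00 ± 0.08, adjusted p = 1.00 and did not pass.

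Of 30 proteasome subunit genes 14 were lower and 0 higher, beside 12.9% and 12.5% of all genes. Log2 fold changes ran from -1.10 to 0.055 with a median of -0.20, and 11 of the 14 were called in all 6 fits without 1 library. Psmd2, a scaffold of the regulatory particle, fell furthest, from 302, 299 and 293 CPM to 152, 144 and 121 CPM (-1.10 ± 0.09, adjusted p = 9.11e-07). Psmd6, another subunit of that particle, fell from 65.6, 67.3 and 56.8 CPM to 39.6, 39.4 and 31.7 CPM (-0.78 ± 0.11, adjusted p = 9.23e-05). The catalytic-ring subunit Psmb7 (117, 121 and 121 and then 92.2, 96.0 and 94.2 CPM, -0.35 ± 0.05, adjusted p = 1.40e-04) and Psmd11 (163, 168 and 167 and then 135, 134 and 129 CPM, -0.32 ± 0.05, adjusted p = 1.85e-04) fell less, with no overlap between groups.

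Of 22 glycolysis and hypoxia genes, 10 were lower and 0 higher, beside 12.9% and 12.5% of all genes. With the replicate number as a block 13 were lower and 2 higher. The median was -0.29, and 6 genes were called in all 6 fits without 1 library. Eno1, enolase, fell from 903, 892 and 802 CPM to 641, 630.1 and 573 CPM (-0.49 ± 0.07, adjusted p = 9.99e-05). Ldha, lactate dehydrogenase A, went from 481, 489 and 461 CPM to 333, 317 and 297 CPM (-0.60 ± 0.10, adjusted p = 2.47e-04). Pgam1 fell from 566, 549 and 531 CPM to 394, 389 and 367 CPM (-0.52 ± 0.08, adjusted p = 1.97e-04) and Pkm, pyruvate kinase, from 1889, 1743 and 1792 CPM to 1407, 1224 and 1205 CPM (-0.50 ± 0.08, adjusted p = 1.70e-04). The groups did not overlap for any of the 4. In the cholesterol pathway 7 of 22 genes were lower and 0 higher, beside 12.9% and 12.5% of all genes (median -0.31), 3 of them in all 6 fits without 1 library. One of these, Idi1, the isopentenyl diphosphate isomerase, went from 80.4, 70.1 and 75.0 to 49.6, 46.2 and 39.8 CPM (-0.73 ± 0.17, adjusted p = 0.00418). Of 18 fatty acid and adipogenic genes 4 were lower and 2 higher, the 4 in all 6 fits without 1 library and neither of the 2. Scd2, the stearoyl desaturase, was abundant and fell from 2013, 2218 and 2365 CPM to 1256, 1168 and 1059 CPM (-0.92 ± 0.19, adjusted p = 0.0017), and the elongase Elovl6 fell from 69.9, 61.5 and 64.3 CPM to 42.5, 43.3 and 43.4 CPM (-0.60 ± 0.09, adjusted p = 1.40e-04). Fasn, fatty acid synthase, and Acaca, acetyl-CoA carboxylase, fell by 0.48 and 0.27 on the log2 scale (adjusted p = 0.00418 and 0.00306). Among 19 NRF2 and oxidative stress genes 3 were higher (15.8%) and 2 lower (10.5%), shares near those of all genes, and 1 each way in all 6 fits. Gsr, glutathione reductase, fell from 52.3, 53.7 and 49.6 CPM to 28.8, 27.5 and 28.3 CPM (-0.88 ± 0.12, adjusted p = 6.49e-05). Cat, catalase, rose from 62.3, 64.4 and 80.5 CPM to 97.5, 104 and 111 CPM (0.59 ± 0.12, adjusted p = 0.00145).

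Of 20 collagen chain genes 7 were higher and 0 lower, beside 12.5% and 12.9% of all genes, with a median of 0.36, 4 of them in all 6 fits without 1 library, and 12 were higher and 1 lower with the replicate number as a block. The count was 4 without control replicate 1, control replicate 2 or siHsp90aa1 replicate 1. Col8a1, a short-chain collagen, rose from 33.3, 34.9 and 30.6 CPM to 59.8, 64.3 and 72.2 CPM (0.99 ± 0.18, adjusted p = 6.36e-04), Col11a1, a fibril collagen that marks carcinoma fibroblasts, from 101, 102 and 119.6 CPM to 188, 182 and 203 CPM (0.83 ± 0.15, adjusted p = 5.43e-04), and the abundant Col5a2 from 2349, 2230.4 and 2423 CPM to 3445, 3314 and 3593 CPM (0.56 ± 0.12, adjusted p = 0.00292). Col8a2 rose from 3.95, 3.37 and 6.70 CPM to 11.2, 10.4 and 13.9 CPM (1.34 ± 0.32, adjusted p = 0.0049). Collagen I, named after its values were seen, also passed: Col1a1 was at 18379, 18747 and 22302 CPM and then 29344, 26651 and 29069 CPM (0.52 ± 0.16, adjusted p = 0.021). The groups did not overlap, but the call was lost without control replicate 1, control replicate 2, siHsp90aa1 replicate 1 or siHsp90aa1 replicate 3 (highest adjusted p = 0.0904). Of 24 collagen processing genes 7 were higher and 1 lower (12 and 1 with the block), 4 of the rises in all 6 fits without 1 library. Lox, the lysyl oxidase that cross-links collagen and elastin, was at 1309, 1332 and 1704 CPM in the controls and 2513, 2841 and 2899.7 CPM with siHsp90aa1 (0.93 ± 0.14, adjusted p = 1.34e-04). Loxl4 rose from 44.0, 51.8 and 58.2 CPM to 89.3, 93.9 and 87.3 CPM (0.81 ± 0.13, adjusted p = 2.77e-04). Plod2, the lysyl hydroxylase of collagen ends, went from 87.1, 104 and 184 CPM to 218, 246 and 346 CPM (1.11 ± 0.25, adjusted p = 0.00373). P4ha3, a prolyl hydroxylase subunit, rose from 188, 185 and 186 CPM to 308, 291 and 308 CPM (0.70 ± 0.18, adjusted p = 0.00862). All 4 enzymes were called in the 6 fits without 1 library, and P4ha3 was not without replicate 3 of every CAF1 group (adjusted p = 0.0566).

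Among 28 matrix glycoproteins and proteoglycans 10 were higher and 1 lower, beside 12.5% and 12.9% of all genes. The median was 0.33, and 7 and 1 were called in all 6 fits without 1 library. Basement membrane genes moved both ways. Lamc1, the laminin gamma 1 chain, rose from 306, 279 and 260.0 CPM to 701, 663 and 619.7 CPM (1.23 ± 0.09, adjusted p = 5.68e-07), while Nid1, nidogen, which binds that chain to collagen IV, fell from 2401, 2176 and 2153 CPM to 1304, 1123 and 982 CPM (-0.98 ± 0.15, adjusted p = 1.27e-04). Both changes were far larger than the spread within a group. Ogn, the leucine-rich proteoglycan osteoglycin, rose from 188, 215 and 321 CPM to 565, 673 and 763 CPM (1.47 ± 0.27, adjusted p = 7.70e-04). Sparc, osteonectin, went from 4360.0, 4192 and 4604 CPM to 6618, 6265 and 6776 CPM (0.58 ± 0.11, adjusted p = 0.00105). Of 22 matrix proteases and inhibitors 6 were higher and 0 lower (8 and 2 with the block), 2 of the rises in all 6 fits without 1 library. Mmp14, the membrane-bound collagenase, rose from 343, 277 and 315 CPM to 521, 393 and 447 CPM (0.54 ± 0.10, adjusted p = 9.63e-04). Mmp11, stromelysin 3, went from 36.1, 35.5 and 37.5 CPM to 61.0, 51.6 and 53.5 CPM (0.61 ± 0.14, adjusted p = 0.00401). Of 25 integrin and adhesion genes 8 were higher and 2 lower. Ilk, integrin-linked kinase, whose partner genes Parvb and Lims2 moved in opposite directions, rose from 209, 195 and 185 CPM to 268, 264 and 248 CPM (0.41 ± 0.07, adjusted p = 4.16e-04). Itga2, the collagen-binding alpha 2 integrin, rose from 16.1, 16.6 and 25.7 CPM to 38.1, 39.6 and 42.9 CPM (1.04 ± 0.22, adjusted p = 0.0025), Itga6, the laminin-binding alpha 6 integrin, fell from 97.0, 90.4 and 51.7 CPM to 35.5, 34.4 and 22.1 CPM (-1.38 ± 0.30, adjusted p = 0.00251), and the mesenchymal cadherin gene Cdh11 rose from 503, 451 and 449.8 CPM to 745, 716 and 735 CPM (0.65 ± 0.14, adjusted p = 0.00229).

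Of 22 contractile genes of the myofibroblast programme 8 rose and 0 fell (11 and 1 with the replicate number as a block), with a median of 0.44, beside 12.5% higher and a median of 0.03 over all genes. Csrp1, a LIM protein of actin bundles, rose from 308, 268 and 270.5 CPM to 516, 449 and 412 CPM (0.70 ± 0.08, adjusted p = 1.27e-05), Tpm1, tropomyosin, from 1480.2, 1356 and 1229.5 CPM to 2123, 2081 and 1859.8 CPM (0.58 ± 0.11, adjusted p = 8.59e-04) and Cnn1, calponin, from 189, 178 and 166 CPM to 293, 304 and 274 CPM (0.71 ± 0.16, adjusted p = 0.00425). Lmod1, leiomodin, rose from 45.8, 37.4 and 40.0 CPM to 81.8, 65.5 and 72.3 CPM (0.83 ± 0.19, adjusted p = 0.00393). No library of one group overlapped the other for these 4, and they alone were called in all 6 fits without 1 library, the count being 4 without control replicate 3 or siHsp90aa1 replicate 1 and 5 without control replicate 2 or siHsp90aa1 replicate 2. Acta2, smooth muscle actin, the usual marker of myofibroblasts and named for that reason after its value was seen, was at 2814, 2531 and 2306 CPM and then 3987, 3965 and 3414 CPM (0.57 ± 0.20, adjusted p = 0.0407). The groups did not overlap, yet the call was lost in each of the 6 fits without 1 library (highest adjusted p = 0.116). In the related list of 21 SRF and actin genes 4 were higher and 1 lower: the LIM protein gene Fhl2 rose from 90.2, 75.5 and 66.6 CPM to 123, 116 and 102 CPM (0.56 ± 0.10, adjusted p = 6.82e-04). Mkl1, the actin-sensing coactivator of SRF, went from 144, 147 and 152 CPM to 173, 171 and 179 CPM (0.24 ± 0.06, adjusted p = 0.00542), a call lost with no filter (adjusted p = 0.0704).

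**Figure D3:**
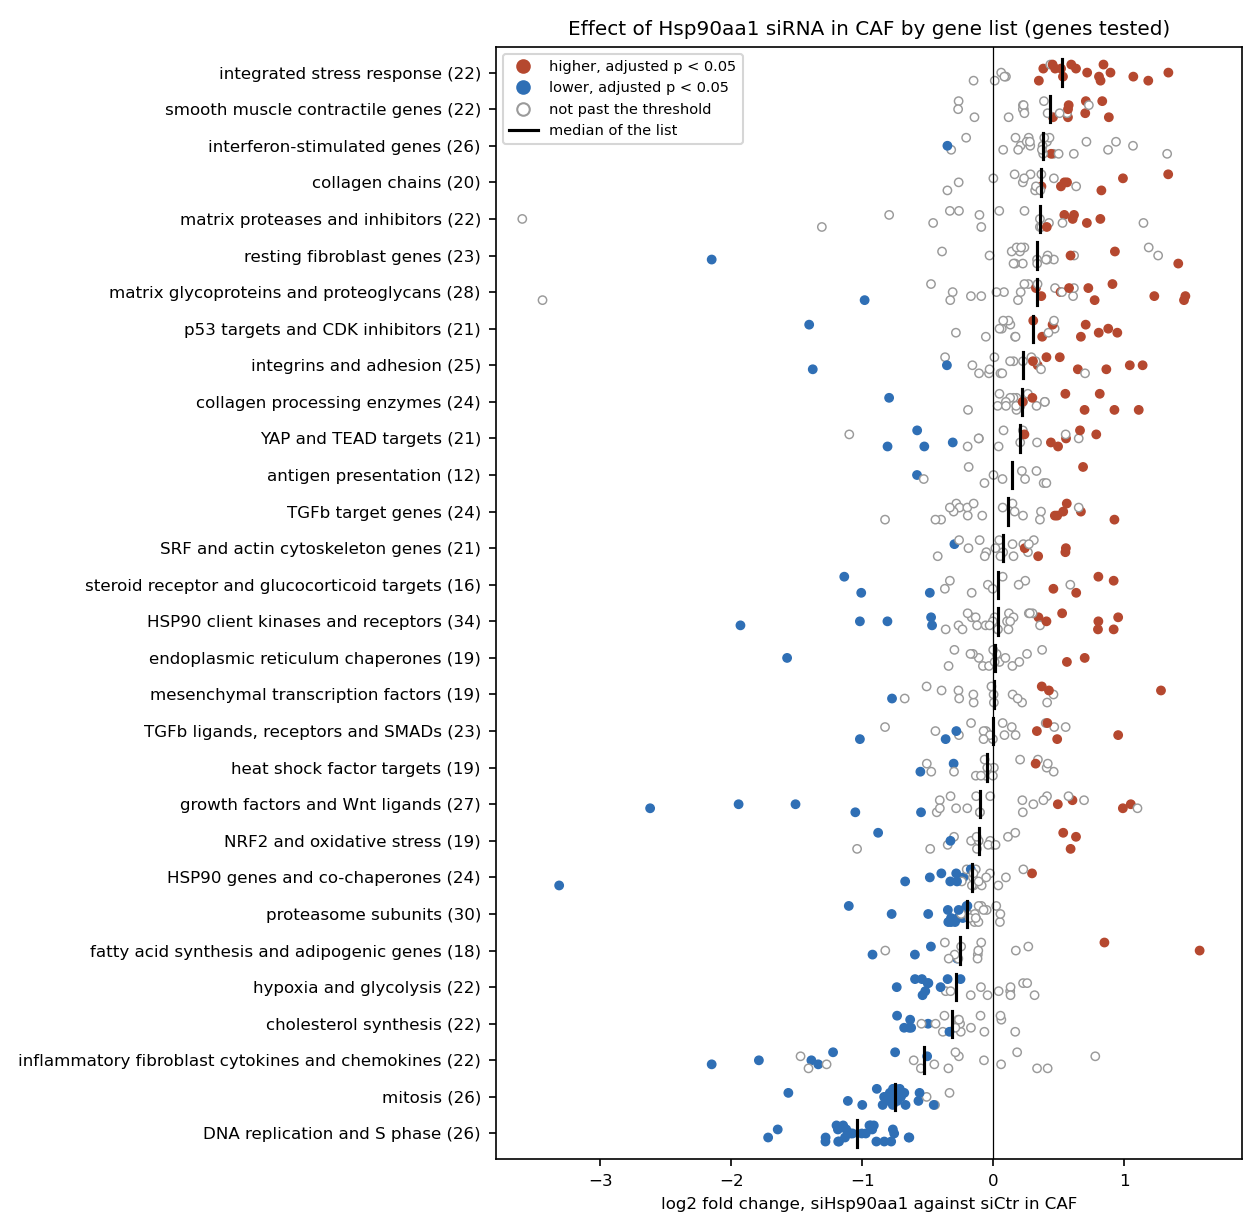
Log2 fold change of every tested member of 30 gene lists (siHsp90aa1 against siCtr in CAF1, horizontal axis), 1 row per list with the number tested, filled points for genes past the test and a tick at the list's median, ordered by median. DNA replication (median -1.04) and mitosis (-0.75) lie lowest with nearly every point filled, and the integrated stress response (0.53) and contractile genes (0.44) lie highest.

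Both receptors of TGFb itself changed, in opposite directions. Tgfbr1, the signalling type I receptor, fell from 48.7, 56.9 and 51.0 CPM to 26.5, 28.9 and 22.0 CPM (-1.02 ± 0.12, adjusted p = 2.68e-05), while Tgfbr2, the ligand-binding type II receptor, rose from 490.0, 535 and 633 CPM to 989, 1003 and 1219.8 CPM (0.95 ± 0.14, adjusted p = 1.36e-04). Neither gene's groups overlapped. Of 23 ligand, receptor and SMAD genes 4 were higher (17.4%) and 3 lower (13.0%), beside 12.5% and 12.9% of all genes, and 8 and 3 with the replicate number as a block. The higher count was 2 without control replicate 2, in a fit of only the 2 groups compared or with no filter, and the lower count was 1 without control replicate 1 or siHsp90aa1 replicate 3, 5 without control replicate 3 and 5 with DESeq2. The signal-carrying Smad2, Smad3 and Smad4 had log2 fold changes of -0.17, 0.00 and -0.02 (adjusted p = 0.0801, 0.996 and 0.815) and did not pass. Acvr1, a type I receptor of the BMP family, fell from 52.3, 49.4 and 50.9 CPM to 40.3, 39.5 and 38.8 CPM (-0.36 ± 0.11, adjusted p = 0.0237), and its call was lost without control replicate 1, siHsp90aa1 replicate 2 or siHsp90aa1 replicate 3 (highest adjusted p = 0.0714). Acvr1 also lost it without replicate 3 of every CAF1 group (adjusted p = 0.0944). Of 24 targets of TGFb 6 were higher and 0 lower (6 and 1 with the block), with a median of 0.11. Lox is among them. Ltbp2, a latent TGFb binding protein, rose from 222, 187 and 188 CPM to 281, 278 and 279.7 CPM (0.49 ± 0.09, adjusted p = 6.21e-04). Ski, a repressor of SMADs, went from 181, 176 and 183 CPM to 247, 235 and 266 CPM (0.47 ± 0.07, adjusted p = 9.09e-05), and Cdkn2b is given above. Ctgf, a much used readout of TGFb and named after its values were seen, had a log2 fold change of 0.65 ± 0.67, adjusted p = 0.521 and did not pass.

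The response of NF1 to TGFb1 gave a further set of genes from libraries outside the CAF1 comparison. In NF1 TGFb1 raised 724 genes more than 2-fold (4.75% of all tested) and lowered 669 (4.39%). Of the 724 raised genes, 109 were higher with siHsp90aa1 in CAF1 (15.1%) and 58 lower (8.01%), beside 12.5% and 12.9% of all genes, with a median of 0.03. Of the 669 lowered genes, 65 were higher (9.72%) and 64 lower (9.57%), with a median of 0.07. Both medians lay near the 0.03 of all genes. The block raised the lowered genes that were higher to 108. With no minimum fold, of 2223 genes that TGFb1 raised 498 were higher (22.4%) and 234 lower (10.5%), and of 2187 that it lowered 275 were higher (12.6%) and 411 lower (18.8%). The share of TGFb1-lowered genes that fell thus lay under the 12.9% of all genes with the minimum fold and over it without. The counts with the minimum fold moved with single libraries: for the raised genes that were lower the count was 21 without control replicate 1, 36 without control replicate 2 and 25 without siHsp90aa1 replicate 3, and for the raised genes that were higher it was 71, 58 and 70 without the same 3 libraries. For the lowered genes that were higher the count was 33, 29 and 35 without these 3 and 100 without control replicate 3, and for the lowered genes that were lower it was 34 without siHsp90aa1 replicate 2 and 40 without siHsp90aa1 replicate 3.

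Of 21 YAP and TEAD genes 6 were higher and 4 lower, beside 12.5% and 12.9% of all genes, and 1 and 3 were called in all 6 fits without 1 library. The higher count was 3 without control replicate 2, control replicate 3 or siHsp90aa1 replicate 2, and 2 without siHsp90aa1 replicate 1, in a fit of only the 2 groups compared or without replicate 3 of every CAF1 group. The coactivator genes fell, Yap1 from 245, 216 and 211 CPM to 177, 151 and 139 CPM (-0.53 ± 0.10, adjusted p = 8.96e-04) and Wwtr1, which encodes TAZ, from 130.4, 106 and 97.2 CPM to 79.6, 70.5 and 72.8 CPM (-0.58 ± 0.13, adjusted p = 0.00326). Their DNA-binding partner Tead2 fell from 104, 97.1 and 86.5 CPM to 61.4, 52.3 and 50.9 CPM (-0.81 ± 0.10, adjusted p = 3.95e-05). Dlc1, a GTPase-activating protein among the targets, rose from 48.6, 49.8 and 49.6 CPM to 74.7, 81.5 and 78.2 CPM (0.66 ± 0.09, adjusted p = 8.92e-05). Ankrd1, a target with the lowest log2 fold change of the list and named for that after its values were seen, did not pass (-1.10 ± 0.42, adjusted p = 0.0642, and 0.0187 with the replicate number as a block). Of 19 mesenchymal transcription factors 3 were higher (15.8%) and 1 lower (5.26%), and 4 and 2 with the replicate number as a block. Klf4 rose from 23.1, 28.4 and 63.2 CPM to 87.4, 82.9 and 109 CPM (1.28 ± 0.31, adjusted p = 0.00596), with control replicate 3 well above the other controls, and Runx2 rose from 52.8, 55.5 and 45.7 CPM to 57.6, 72.2 and 69.5 CPM (0.37 ± 0.09, adjusted p = 0.00675), a call lost in a fit of only the 2 groups compared (adjusted p = 0.0696). Runx2 also lost its call without replicate 3 of every CAF1 group (adjusted p = 0.114).

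At the RNA level, of 34 genes of known HSP90 client kinases and receptors 7 were higher (20.6%) and 5 lower (14.7%). Among all genes 12.5% were higher and 12.9% lower. The median was 0.03, as over all genes. With the replicate number as a block 11 were higher and 6 lower. Beside Tgfbr1, Met, Cdk4 and Cdk6, which fell, stood Tgfbr2, Esr1 and Pgr, which rose. Esr1, the oestrogen receptor, went from 77.4, 92.5 and 131 CPM to 157, 177 and 191 CPM (0.80 ± 0.17, adjusted p = 0.00214). Pgr, the progesterone receptor, went from 140.2, 161 and 210.3 CPM to 343, 318 and 308 CPM (0.92 ± 0.24, adjusted p = 0.00881), a call lost with DESeq2 (adjusted p = 0.441). Nr3c1, the glucocorticoid receptor and a classic client, had a log2 fold change of 0.00 ± 0.16, adjusted p = 0.994. In the list of 16 steroid and glucocorticoid genes 4 were higher (25%) and 3 lower (18.8%). Nr1d1 and Nr1d2, the haem-binding repressors of the clock, were both lower. Nr1d2 went from 29.3, 28.9 and 31.6 CPM to 15.5, 16.4 and 12.8 CPM (-1.01 ± 0.15, adjusted p = 1.19e-04) and Nr1d1 from 41.5, 35.5 and 32.7 CPM to 19.1, 16.6 and 14.2 CPM (-1.14 ± 0.30, adjusted p = 0.00979). Of 27 growth factor and Wnt genes 4 were higher (14.8%) and 5 lower (18.5%), 2 and 1 of them in all 6 fits without 1 library. With the block 7 passed each way. Figf, which encodes VEGF-D, rose from 84.7, 79.7 and 117 CPM to 179, 187 and 193 CPM (0.99 ± 0.17, adjusted p = 3.57e-04). Fgf10 went from 75.6, 59.6 and 51.7 CPM to 104, 98.8 and 82.0 CPM (0.61 ± 0.15, adjusted p = 0.00604), while Ereg, the EGF receptor ligand epiregulin, fell from 50.3, 29.6 and 26.7 CPM to 13.6, 13.1 and 10.9 CPM (-1.51 ± 0.34, adjusted p = 0.00313). Angpt1, angiopoietin 1, fell by 1.05 (adjusted p = 0.0191), a call lost without control replicate 1, siHsp90aa1 replicate 2 or siHsp90aa1 replicate 3 (highest adjusted p = 0.121).

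The same siRNA in NF1 with TGFb1, tested in libraries that CAF1 does not share, gave 4309 calls (28.3%, with 14.8% higher and 13.5% lower). Hsp90aa1 fell by 3.31 in CAF1 and by 3.01 in NF1 (difference -0.30 ± 0.42, adjusted p = 0.758). Of the calls, 1856 were shared in direction, which is 48.0% of the CAF1 calls and 43.1% of the NF1 calls, and 96 were opposite (2.48% and 2.23%). The effects of the knockdown differed between the lines for 832 genes (5.46%), 372 more positive in CAF1 (2.44%) and 460 more negative (3.02%), and for 1871 with the replicate number as a block. The count was 490 without CAF1 control replicate 2, 540 without CAF1 siHsp90aa1 replicate 2, 490 without NF1 control replicate 3, and 453 and 482 without NF1 siHsp90aa1 replicates 1 and 2. Since TGFb1 was given to NF1 and not to CAF1, line and TGFb1 cannot be told apart in this difference.

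The difference did not pass for Psmd2, Pdia3, Parvb and Tgfbr1, which fell in both lines. Proteasome genes were lower in 14 of 30 in CAF1 and 17 of 30 in NF1, beside 12.9% and 13.5% of all genes. Of these genes 0 of 30 differed, and Psmd2 moved by -1.10 in CAF1 and -1.04 in NF1 (difference -0.06 ± 0.12, adjusted p = 0.836). Pdia3 moved by -1.57 in CAF1 and -1.47 in NF1 (difference -0.11 ± 0.26, adjusted p = 0.878), and Parvb by -2.16 in CAF1 and -1.84 in NF1 (difference -0.32 ± 0.56, adjusted p = 0.817). Tgfbr1 moved by -1.02 in CAF1 and -1.32 in NF1 (difference 0.30 ± 0.17, adjusted p = 0.364). For these 4 genes the interval of the difference, about 2 SE on each side, still allows unequal effects.

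Some of the cell-cycle genes fell further in CAF1. In NF1 10 of 26 replication genes were lower with a median of -0.35, and 3 of 26 mitosis genes with a median of -0.22. Of all genes 13.5% were lower in NF1, with a median of 0.006, so the mitosis count there lay near the share of all genes. The difference passed, with the fall larger in CAF1, for 9 replication and 6 mitosis genes, beside 3.02% of all genes. Mcm5 moved by -1.19 in CAF1 and -0.29 in NF1 (difference -0.89 ± 0.20, adjusted p = 0.0122), and Bub1b by -0.84 in CAF1 and -0.27 in NF1 (difference -0.57 ± 0.14, adjusted p = 0.0242). In NF1 Bub1b was at 193, 176 and 158 CPM with siCtr and 145, 149.6 and 141 CPM with siHsp90aa1. Mcm3 and Pcna fell in both lines, and their difference did not pass (-0.48 ± 0.25, adjusted p = 0.292 and -0.40 ± 0.18, adjusted p = 0.234), while that of Pcna passed with the block (adjusted p = 0.025).

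Some chemokine genes had fold changes of opposite sign in CAF1 and NF1. The test of the difference shows unequal effects, and not by itself a rise in NF1. In NF1 9 of 22 were higher and 2 lower, with a median of 0.60, beside 14.8% and 13.5% of all genes. For 7 of 22 the CAF1 effect was more negative past the test, beside 3.02% of all genes. Ccl2 was higher in NF1 throughout, at 409, 334 and 229 CPM with siCtr and 586, 396 and 306 CPM with siHsp90aa1, groups that overlapped. Its fold change was -1.39 in CAF1 and 0.41 in NF1 (difference -1.79 ± 0.35, adjusted p = 0.00668). Ccl7 moved by -1.22 in CAF1 and 0.65 in NF1 (difference -1.87 ± 0.35, adjusted p = 0.00464), and Ccl11 by -2.15 in CAF1 and 0.93 in NF1 (difference -3.08 ± 0.65, adjusted p = 0.0106). Il33 moved by -1.34 in CAF1 and 0.05 in NF1 (difference -1.39 ± 0.46, adjusted p = 0.0905), and this difference did not pass, but did with the block (adjusted p = 0.00422). Interferon-stimulated genes rose in 20 of 26 in NF1 and 1 of 26 in CAF1, beside 14.8% and 12.5% of all genes. But the difference passed, more negative in CAF1, for 1 of 26, so the effects on single genes of this list were mostly not shown to differ. Antigen presentation genes, beside the same shares of all genes, rose in 10 of 12 in NF1 and 1 of 12 in CAF1, with 2 of 12 differing.

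Some contractile, TGFb target and stress response genes differed the other way. Of all genes 14.8% were higher and 13.5% lower in NF1. Contractile genes were higher in 8 of 22 and lower in 0 in CAF1, higher in 1 and lower in 6 in NF1, and 8 of 22 differed, all more positive in CAF1, beside 2.44% of all genes. Csrp1 moved by 0.70 in CAF1 and -0.31 in NF1 (difference 1.01 ± 0.11, adjusted p = 1.13e-04), and Cnn1 by 0.71 in CAF1 and -0.44 in NF1 (difference 1.15 ± 0.24, adjusted p = 0.00896). Cnn1 in NF1 was at 18.3, 24.7 and 27.6 CPM with siCtr and TGFb1, and 13.2, 18.1 and 20.7 CPM with siHsp90aa1 and TGFb1. Of the TGFb targets 1 of 24 was higher and 12 lower in NF1, and 5 differed, all more positive in CAF1. Lox moved by 0.93 in CAF1 and -0.16 in NF1 (difference 1.09 ± 0.19, adjusted p = 0.00373) and Ski by 0.47 in CAF1 and -0.24 in NF1 (difference 0.71 ± 0.09, adjusted p = 5.12e-04). Stress response genes were higher in 1 of 22 and lower in 3 in NF1, the falls near the share of all genes. Of the 22, 7 differed, with Slc3a2 at 0.72 in CAF1 and -0.03 in NF1 (difference 0.75 ± 0.13, adjusted p = 0.00276) and Atf4 at 0.38 in CAF1 and -0.41 in NF1 (difference 0.79 ± 0.12, adjusted p = 0.00112). In NF1 Slc3a2 was at 304, 289 and 293 CPM with siCtr and 299.9, 265 and 302 CPM with siHsp90aa1.

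The largest differences were of single genes. Of those more positive in CAF1, Ctsf, the lysosomal protease cathepsin F, was at 3.78, 2.16 and 4.13 CPM in the CAF1 controls and 8.003, 6.36 and 9.43 CPM with siHsp90aa1, and in NF1 3.29, 4.96 and 5.26 CPM with siCtr and 1.41, 1.91 and 2.26 CPM with siHsp90aa1 (difference 2.51 ± 0.36, adjusted p = 7.32e-04). Ctsf rose in one line and fell in the other, with no overlap in NF1. The rule that named the genes here required that their CAF1 groups did not overlap. Mn1, a transcriptional coregulator, was at 52.6, 55.9 and 108 CPM and 138, 118 and 159 CPM in CAF1, and in NF1 8.06, 7.84 and 8.74 CPM with siCtr and 2.31, 3.19 and 3.56 CPM with siHsp90aa1 (difference 2.38 ± 0.36, adjusted p = 0.0012). Smoc2, Phyhip and Fzd4, a Wnt receptor, differed by 2.47, 2.22 and 1.96 (adjusted p = 0.0445, 0.0283 and 0.0326), and these 3 lost the call in 10, 5 and 9 of the 12 fits without 1 library, and Fzd4 also in a fit of only the 4 groups compared (adjusted p = 0.0596). Smoc2 and Fzd4 also lost it without replicate 3 of every CAF1 group (adjusted p = 0.0656 and 0.0518). Of those more negative in CAF1, Prl2c3 and Prl2c2, the proliferin genes, are near-identical copies whose reads may have been split between them. Prl2c3 was at 17.2, 9.97 and 12.2 CPM and 5.76, 4.54 and 4.09 CPM in CAF1, and in NF1 5.35, 3.47 and 1.47 CPM with siCtr and 29.9, 14.3 and 8.51 CPM with siHsp90aa1 (difference -3.80 ± 0.66, adjusted p = 0.00336). Prl2c2 differed by -3.43 ± 0.54, adjusted p = 0.00156. Ptpn5, a neuronal-type tyrosine phosphatase, was at 434, 461 and 535 CPM and 677, 622 and 690.5 CPM in CAF1, and in NF1 1.02, 1.16 and 0.733 CPM with siCtr and 10.3, 8.12 and 5.71 CPM with siHsp90aa1 (difference -2.55 ± 0.25, adjusted p = 1.13e-04). Ly6a, the surface protein Sca-1 of resting fibroblasts, was at 102, 105 and 135 CPM and 161, 163 and 190.3 CPM in CAF1, and in NF1 25.6, 31.4 and 24.2 CPM with siCtr and 298, 186 and 168 CPM with siHsp90aa1 (difference -2.41 ± 0.26, adjusted p = 1.13e-04). Ly6c1 differed by -2.22 ± 0.36, adjusted p = 0.00183. Both were higher in every siHsp90aa1 library of each line, and less so in CAF1. Ly6a and Ly6c1 belong to a family of similar genes, which may share reads. In the resting fibroblast list of 23 genes 3 were higher and 1 lower in CAF1, beside 12.5% and 12.9% of all genes. With the replicate number as a block 6 were higher and 1 lower. In NF1 9 were higher and 0 lower, beside 14.8% and 13.5% of all genes. The effects differed for 6, all more negative in CAF1, beside 3.02% of all genes.

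**Figure D4:**
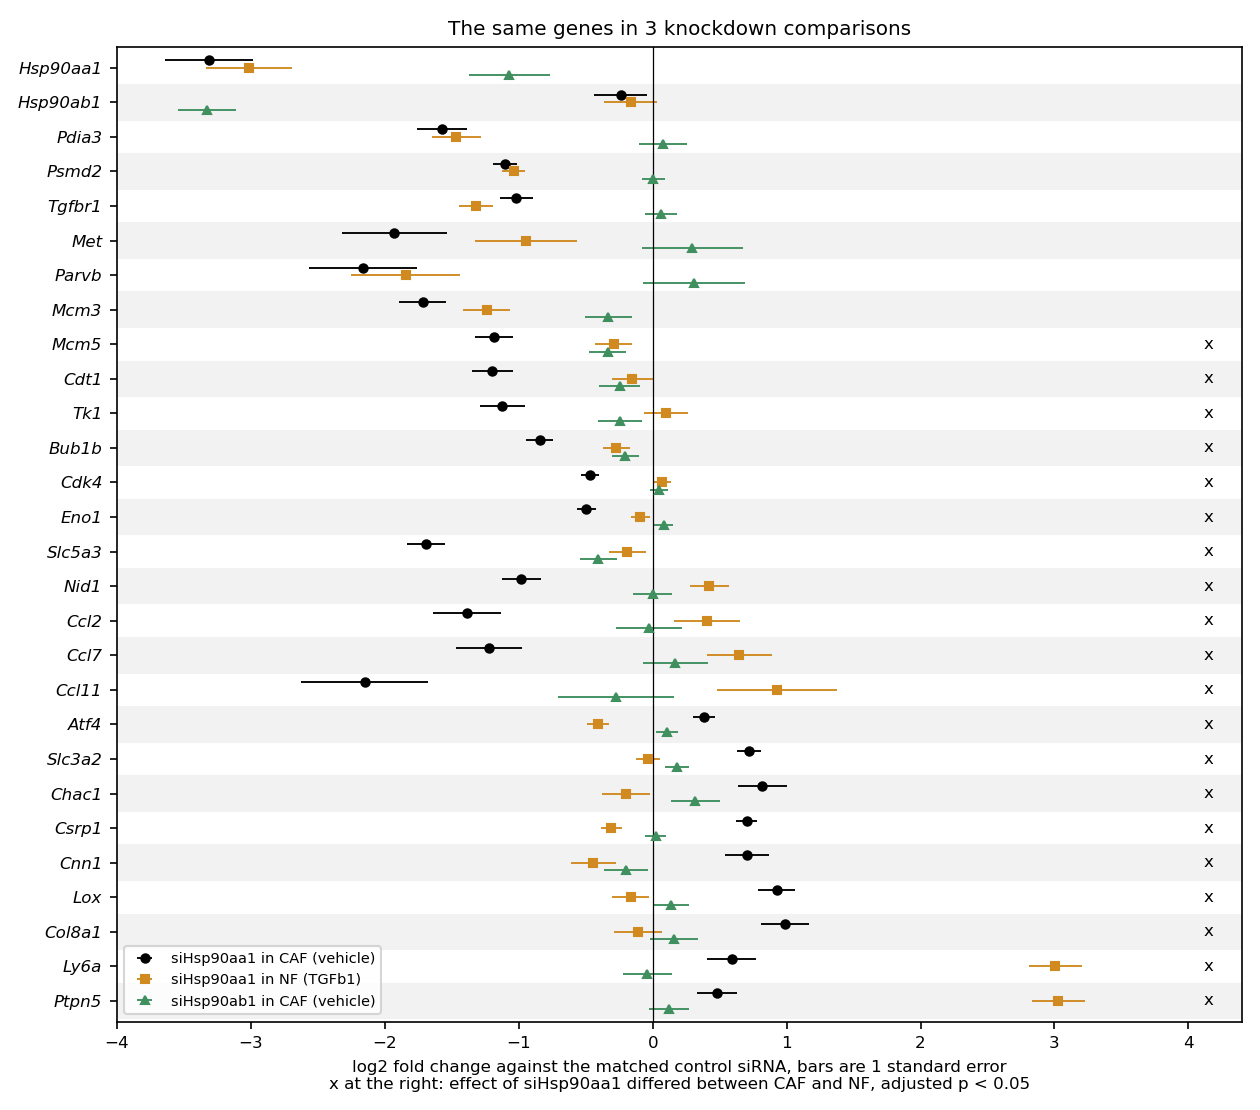
Log2 fold change ± SE of 28 genes for siHsp90aa1 in CAF1 (circles), siHsp90aa1 in NF1 with TGFb1 (squares) and siHsp90ab1 in CAF1 (triangles, against the same CAF1 controls as the circles), with a cross where the CAF1 and NF1 effects of siHsp90aa1 differed. Circles and squares lie on opposite sides of 0 for Ccl2, Cnn1 and Atf4 and side by side for Psmd2 and Pdia3, while the triangles lie nearer 0 for most genes.

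Set directly against the knockdown of Hsp90ab1 in the same line, siHsp90aa1 libraries differed at 4006 genes (26.3%), 1988 higher (13.1%) and 2018 lower (13.3%). The fold change of this test is between the 2 knockdown groups and leaves out their shared controls, while the spread is estimated over all 21 libraries. The count was 2506 without siHsp90aa1 replicate 3, and 2492 and 2478 without siHsp90ab1 replicates 1 and 2. Hsp90ab1 was at 2113, 2029.6 and 2041 CPM with siHsp90aa1 and 315, 246 and 166 CPM with siHsp90ab1 (3.09 ± 0.21, adjusted p = 1.23e-07). Hsp90aa1 was at 122, 85.9 and 58.1 CPM and 479, 459 and 324 CPM (-2.24 ± 0.31, adjusted p = 8.36e-05). Each pool gave the lower level of its own target. Hsp90aa1 was also lower with siHsp90ab1 than in every control, at a mean of 420.5 against 883 CPM, but did not pass (-1.07 ± 0.30, adjusted p = 0.123). Against the controls that both comparisons share, siHsp90ab1 alone gave 137 calls (0.9%) and 1341 genes at an unadjusted p under 0.05, beside 3867 and 5581 for siHsp90aa1. With the replicate number as a block the counts were 360 and 5198, and without replicate 3 of every CAF1 group 30 and 3342. Without control replicate 2 the siHsp90ab1 count was 44, and it was 55 without siHsp90ab1 replicate 2 or 3, 59 without control replicate 3 and 80 without siHsp90ab1 replicate 1.

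All 26 replication genes and 21 of 26 mitosis genes were lower with siHsp90aa1 than with siHsp90ab1, beside 13.3% of all genes. Mcm3 was at 101, 103 and 76.1 CPM with siHsp90ab1, above each of the siHsp90aa1 libraries (-1.39 ± 0.18, adjusted p = 4.02e-05). Against the controls 0 of 26 replication genes passed with siHsp90ab1, with a median of -0.24, beside 26 and -1.04 with siHsp90aa1. Of 30 proteasome genes 16 were lower with siHsp90aa1 than with siHsp90ab1, and Psmd2 was at 305, 297 and 295 CPM with siHsp90ab1 (-1.11 ± 0.09, adjusted p = 4.40e-07). Of 24 HSP90 and co-chaperone genes 10 were lower and 1, Hsp90ab1, higher. The 10 include Hsp90aa1, so the targets of both pools are in these counts. Fkbp4 was at 281, 287 and 252 CPM with siHsp90ab1 (-1.02 ± 0.09, adjusted p = 1.26e-06), above the controls, and 139, 136 and 129 CPM with siHsp90aa1, under them. Of 22 stress response genes 10 were higher with siHsp90aa1, and of 26 interferon-stimulated genes 8 were higher and 0 lower, beside 13.1% higher of all genes. Ccl2 was at 94.4, 71.5 and 68.7 CPM with siHsp90ab1 (-1.36 ± 0.25, adjusted p = 9.15e-04). Tgfbr1 was at 52.4, 56.9 and 54.2 CPM (-1.08 ± 0.12, adjusted p = 1.74e-05).

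Among the genes with the largest differences, Tcp11l2 and Myom1 were at 3.58, 2.42 and 5.18 CPM and 1.31, 1.98 and 2.85 CPM with siHsp90ab1 (2.08 ± 0.41, adjusted p = 0.00136 and 1.83 ± 0.24, adjusted p = 5.12e-05). Podn, the leucine-rich proteoglycan podocan, was at 33.4, 28.2 and 52.7 CPM with siHsp90aa1 and 10.8, 7.15 and 17.6 CPM with siHsp90ab1 (1.68 ± 0.30, adjusted p = 6.75e-04). Fbln7 differed by 1.87 ± 0.58, adjusted p = 0.0229, a call lost in a fit of only the 2 groups compared (adjusted p = 0.0889) and without siHsp90aa1 replicate 3 or siHsp90ab1 replicates 1 or 2 (highest adjusted p = 0.219). On the lower side, Acsbg1, an acyl-CoA synthetase, was at 1.796, 0.989 and 0.477 CPM with siHsp90aa1 and 16.9, 10.1 and 4.97 CPM with siHsp90ab1 (-3.22 ± 0.56, adjusted p = 5.16e-04), and its controls were at 9.92, 4.58 and 1.76 CPM. Ccbe1, a secreted factor needed for lymphatic vessels, was at 1.28, 0.710 and 0.151 and 9.53, 5.99 and 2.03 CPM (-2.93 ± 0.65, adjusted p = 0.00316), with controls at 4.83, 2.34 and 0.936 CPM. Il18rap, a subunit of the interleukin 18 receptor, was at 1.48, 0.989 and 0.376 and 10.3, 5.64 and 2.66 CPM (-2.66 ± 0.52, adjusted p = 0.00136), with controls at 5.41, 3.60 and 1.15 CPM. In all 3 genes replicate 3 was the lowest of each group, the spread within a group was wide and the siHsp90aa1 libraries overlapped the controls. Dtx4, an E3 ligase of the Notch pathway, was at 1.35, 0.837 and 0.677 and 6.05, 5.53 and 3.53 CPM (-2.36 ± 0.25, adjusted p = 6.70e-06), with controls at 2.88, 2.85 and 2.67 CPM. Against the controls siHsp90ab1 moved Acsbg1, Ccbe1, Il18rap and Dtx4 by 0.95, 1.08, 0.86 and 0.84. None of these passed (lowest adjusted p = 0.0965), and they are part of the differences given. Parvb was at 68.2, 63.1 and 29.1 CPM with siHsp90ab1 (-2.47 ± 0.41, adjusted p = 3.51e-04).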

How the data were processed

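RNA was measured with a stranded mRNA kit in 21 libraries, 6 of them in this comparison. The submitters' processing notes name STAR, Salmon and the GRCm38 genome and no versions. The authors deposited expected counts per gene without normalisation. Of their values 10.9% were not whole, and all were rounded to whole numbers. TPM, which the authors deposited from the same tools, served only for levels of HSP90 genes. All columns were mapped to a sample, and 99.5% of tested genes matched the annotation that gives coordinates.

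The filter on low counts (filterByExpr by group, minimum count 10 and minimum total 15) left 15230 of 45706 genes. Tests were made with edgeR 4.0.16 in R 4.3.3: TMM factors, 1 quasi-likelihood model over the 21 libraries with a coefficient for each group, 6 contrasts, and Benjamini-Hochberg adjustment over all genes of a contrast with a threshold of 0.05. SE values were obtained from the fold change and its F statistic, at a prior count of 0.125. Levels are CPM scaled by TMM. The alternatives were DESeq2 1.42.0, its size factors in edgeR, no filter, a mean of at least 1 CPM, only the groups compared, a replicate block and each library left out. The fit was also run on simulated counts, drawn independently for each library with no replicate effect. That run did not check error rates under the replicate structure described below.

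The labels call the replicate number a batch, so equal numbers pair libraries. Over 10374 genes, deviations from the group means in same-numbered libraries of the pair of groups had r of 0.459 to 0.770 (mean 0.635), and a mean of -0.298 for unequal numbers. Deviations of a gene within a group cancel out, so the negative mean follows largely from the positive one and adds no separate evidence. The design has no replicate term, and the value with a block stands beside a result where it changes a call or moves a count by over 1.5 times.

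The comparison, the 30 gene lists, the 7 marker lists and the tests were chosen with earlier results of these data known, so a list's count is a description. The rule for names took the HSP90 genes, then the 15 largest rises and falls (past the threshold, a mean of 5 CPM or more in the higher group, groups apart, equal sign in the 3 pairs, clone names and pseudogenes left out), the 5 largest each way between lines and between siRNAs, and the first 4 members of a list by p. Members that did not pass are named as examples, and other members were chosen after their values were seen. Some genes that this rule names are not reported here. Promoters (300 bases) are from RefSeq, GRCm38.p6.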

Additional observations from a re-analysis of the deposited data

Results flagged for a closer look

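The effect of siHsp90aa1 differed between CAF1 and NF1 for 832 genes by a test of the difference itself, with TGFb1 present in NF1 only. The named genes with the most positive difference in log2 fold change, CAF1 minus NF1, were Ctsf (2.51), Smoc2 (2.47), Mn1 (2.38), Phyhip (2.22) and Fzd4 (1.96). Those with the most negative were Prl2c3 (-3.80), Prl2c2 (-3.43), Ptpn5 (-2.55), Ly6a (-2.41) and Ly6c1 (-2.22). The call held in all 12 fits without 1 library for Ctsf, Mn1, Prl2c3, Prl2c2, Ptpn5, Ly6a and Ly6c1, in 2 of 12 for Smoc2, in 7 of 12 for Phyhip and in 3 of 12 for Fzd4.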

How the results depend on the processing

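No fold change past the threshold turned its sign under any alternative run, but the balance of calls did for some counts. With the replicate block siHsp90aa1 in CAF1 gave 2693 higher and 2505 lower genes, beside 1898 and 1969, and the 65 higher and 64 lower of the genes lowered by TGFb1 were 33 and 44 without control replicate 1 and 100 and 63 without control replicate 3. Leaving out 1 library at a time, siHsp90aa1 in CAF1 gave 2460 to 4426 calls (979 to 2200 of them higher), its difference between the lines 453 to 951, siHsp90aa1 against siHsp90ab1 2478 to 4285 and siHsp90ab1 44 to 102. Higher contractile and higher collagen genes numbered 4 to 8 each, lower cytokine genes 4 to 8 and higher stress response genes 6 to 17, while the lower replication genes stayed at 26. Genes raised by TGFb1 in NF1 were higher in 58 to 111 and lower in 21 to 83 cases, and genes lowered by it higher in 29 to 100 and lower in 34 to 63. With the replicate block, 1871 genes differed between the lines, siHsp90ab1 gave 360 calls, 12 collagen genes were higher, and 108 of the genes lowered by TGFb1 were higher. The report gives the counts of the other lists that the block moved by more than 1.5 times. DESeq2 gave 1341 genes for the difference between the lines and 322 for siHsp90ab1. A fit of only the groups compared gave 5 for siHsp90ab1 and 31 for the raised genes that were lower. Without replicate 3 of every CAF1 group, an alternative chosen after seeing the data, siHsp90ab1 gave 30. Taking all genes lowered by TGFb1 at an adjusted p under 0.05, with no fold minimum, 18.8% were lower. For these changes the cause was not tested. For the named genes, 2295 of the values under an alternative stayed on the same side of the threshold, 151 lost the call and 35 gained it.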
